A study of Bos taurus with 12 samples.

Results

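Epithelial cells are held together by cadherins, which join neighbouring cells at adherens junctions through catenins, and by claudins, which seal or open the space between cells at tight junctions. Connexins assemble into gap junctions, the channels through which neighbouring cells exchange ions and small molecules. In the endometrium these proteins form the lining that an embryo meets, and in rat and mouse uterus several of them are known to respond to ovarian steroids. Transcripts of 10 such genes were followed here in the bovine endometrium: the cadherins CDH1 and CDH2, the connexins GJA1 and GJB2, the claudins CLDN1, CLDN3, CLDN4, CLDN7 and CLDN10, and TJP1, the scaffold protein ZO-1 beneath the tight junction. The 10 genes were chosen by name with earlier results of these arrays known, and every probe set that the platform annotation pairs with one of the names was taken, with no threshold on its signal. This gave 16 probe sets, of 24016 on the array that are not controls, for 10 of the 9155 genes named there by a single symbol. Their changes are therefore described, and the number of members that passed a test is not read as evidence about junctions.

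The samples were brushings (cytobrush) of the endometrium of cyclic Simmental heifers after synchronised oestrus. They were taken in the cycle before transfer of an in vitro-produced embryo, and pregnancy after that transfer later sorted the heifers into high-receptive (HR) and low-receptive (LR) groups, which the labels call receptive and non receptive. HR3 and LR3 denote samples of day 3 of the oestrous cycle and HR7 and LR7 samples of day 7, with 3 arrays per group and 12 in all. Each array measured 1 pool of RNA from several heifers, so the spread between arrays is a spread between pools and not between animals. All heifers were synchronised, no treatment distinguished the groups, and receptivity was never manipulated. The ages of the heifers and which individuals entered which pool were not given in the sources used here.

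Transcript abundance is given as the log2 PLIER signal of an Affymetrix Bovine Genome Array, where a difference of 1 is a 2-fold difference. Array medians lay between 6.64 and 6.77, and between 281 and 395 probe sets per array stood at 0. Levels can be set against each other between groups for 1 probe set, not between probe sets. Brushings yield mainly epithelium, and 14 uterine epithelium markers had a mean signal between 9.69 and 10.11 in every pool. KRT8 and PAX8 stayed below the array median on all 12 arrays, EHF exceeded it on 5 and SPDEF on 7. The rest of these markers exceeded it on all 12. Other cells were present too: the mean of 17 stromal markers lay between 7.58 and 9.19. Coming from different probe sets, these means do not measure the share of each cell type. In such mixed samples, fewer cells of a type and less RNA per cell cannot be told apart.

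Of the 16 probe sets, 10 passed the filters used for testing (a standard deviation of at least 0.2 over the 12 arrays, and a signal that exceeded the array median in every pool of 1 or more groups). They represented 8 genes. CLDN3 missed the first filter, with a standard deviation of 0.18, although its signal exceeded the median on all 12 arrays. Both TJP1 probe sets, 1 of 2 for GJA1 and 2 of 3 for GJB2 stayed below the array median on every array. These 6 probe sets are reported from a fit over all 24016 probe sets. CDH2 passed only through the day 3 groups and GJB2 only through the day 7 groups, so for both the filter favoured a difference between days.

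Between day 3 and day 7, CDH2 and 1 probe set each of CDH1 and GJA1 fell in both receptivity groups. CLDN10 fell in HR, and 1 GJB2 probe set rose in HR. Between HR and LR, no junction probe set passed the test on either day. In HR, 5 of the 10 tested probe sets passed (HR7 against HR3, limma, Benjamini-Hochberg adjusted p under 0.05), 4 of them lower and 1 higher, where 41.5% of the 7336 probe sets tested passed, 20.8% lower and 20.7% higher. In LR, 3 of 10 passed, all lower, against 44.7% of all probe sets tested, 22.0% lower and 22.7% higher. The median day difference of all 16 probe sets was -0.14 in HR and -0.13 in LR, beside -0.04 and -0.04 over all 24016. A large part of the transcriptome thus differed between the days, and the share of junction probe sets that did so lay near that background.

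**Figure D1:**
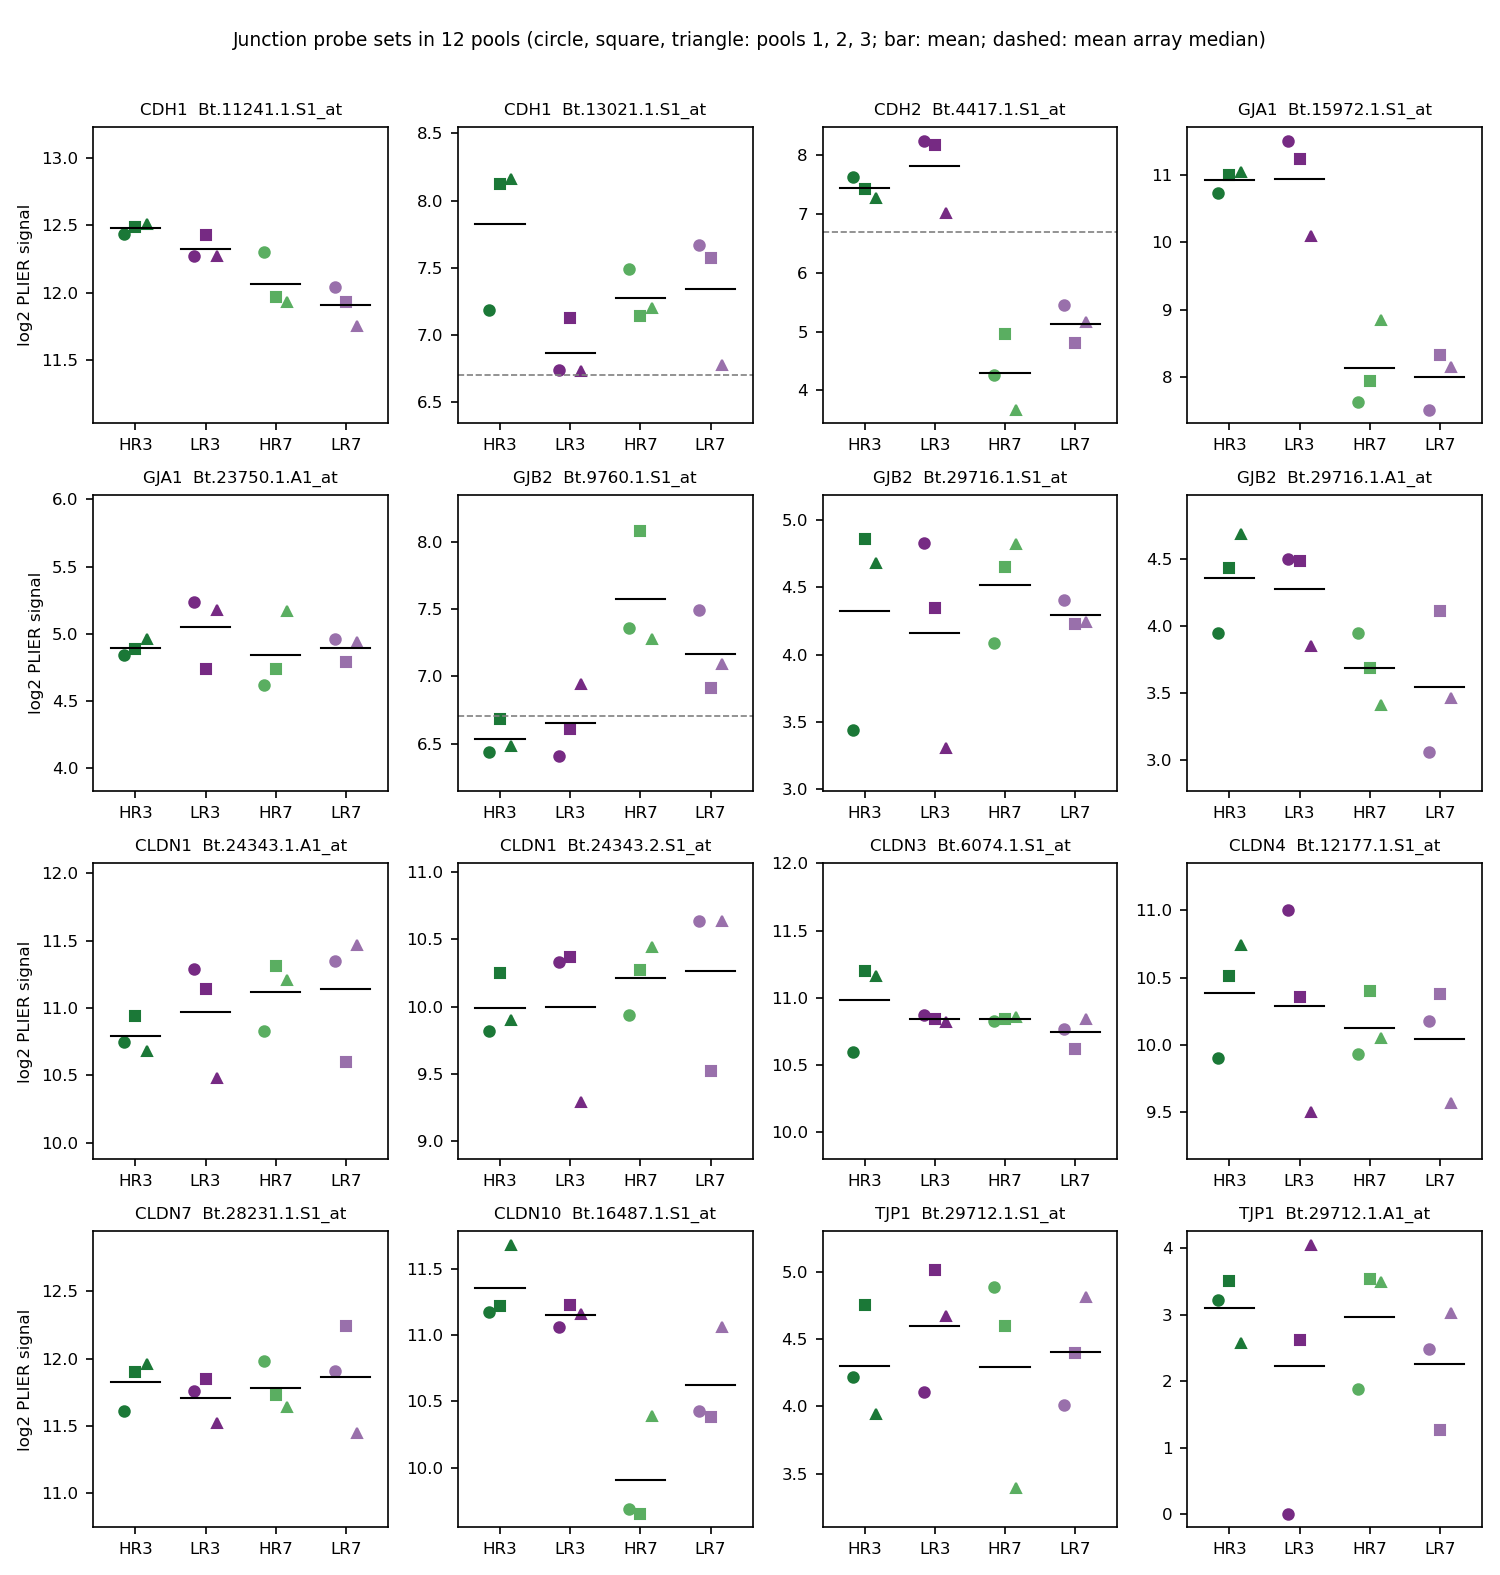
Log2 PLIER signal (vertical axes, each panel with its own range) of the 16 junction probe sets in the HR3, LR3, HR7 and LR7 groups; each point is 1 pool, the bar is the mean of 3 pools, and the dashed line is the mean array median where it falls in the panel. CDH2 and GJA1 (Bt.15972.1.S1_at) drop from day 3 to day 7 in HR and LR without overlap, whereas the CLDN1, CLDN4 and CLDN7 panels show groups that overlap.

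Among the adherens junction genes, CDH2 changed most. CDH2 encodes N-cadherin, the cadherin typical of mesenchymal and neural cells. Its probe set Bt.4417.1.S1_at gave 7.63, 7.43 and 7.27 in the HR3 pools and 8.25, 8.17 and 7.02 in the LR3 pools. At day 7 the signals were 4.27, 4.96 and 3.67 in HR and 5.45, 4.80 and 5.16 in LR. All 6 pools of day 3 lay above the array median and all 6 of day 7 below it, so the day 7 values are weak signals. CDH2 fell by 3.14 on the log2 scale in HR (SE 0.35, 8.84-fold, 95% confidence interval 5.19 to 15.04, limma adjusted p = 0.000108). In LR it fell by 2.68 (SE 0.35, 6.39-fold, interval 3.76 to 10.9, limma adjusted p = 0.000325). With 16 added to the linear signal, which damps weak values, the CDH2 differences were -2.39 in HR and -2.24 in LR and still passed, so the size of the fold depends on the weak day 7 signals. The lowest group mean was that of HR7 (4.30 ± 0.65, SD, n = 3), followed by LR7 (5.14 ± 0.33), HR3 (7.44 ± 0.18) and LR3 (7.81 ± 0.69). Groups next to each other within a day overlapped: at day 7, HR minus LR was -0.84 (interval -1.60 to -0.07, limma adjusted p = 0.997).

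Stromal markers were for the most part lower at day 7, as CDH2 was, but not in step with it from pool to pool. The mean of these 17 genes ranged from 8.88 to 9.19 in HR3 and from 8.0 to 8.82 in LR3, and from 7.86 to 8.80 in HR7 and from 7.58 to 8.33 in LR7. HR7 pool 3, the pool with the least CDH2 (3.67), had the highest stromal mean of its group (8.80), and LR3 pool 1, with the most CDH2 (8.25), had the lowest of its group (8.0). Of the 12 that were tested, 11 were lower at day 7 in HR and 10 in LR. Their median difference was -1.30 in HR and -0.50 in LR, beside -0.06 and -0.10 over all tested probe sets. Only 3 passed as lower in HR and 3 in LR, and none as higher, beside 20.8% and 22.0% of all tested probe sets that passed as lower. Of 11 endothelial markers, 10 stayed below the array median on all 12 arrays. The other, EMCN, exceeded it on 8 arrays and was the only one tested. It fell in HR (-2.08) and in LR (-1.70), as CDH2 did. The part of stromal or endothelial cells in the fall of CDH2 was not tested.

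CDH1 encodes E-cadherin, the cadherin of epithelia, and has 2 probe sets that behaved differently. The first, Bt.11241.1.S1_at, lay among the strong signals of every array. Its values were 12.44, 12.49 and 12.51 in HR3 and 12.27, 12.43 and 12.27 in LR3. They were 12.30, 11.97 and 11.93 in HR7 and 12.04, 11.93 and 11.75 in LR7. Day 3 pools lay above day 7 pools within both HR and LR, with no overlap, but the differences were small. CDH1 fell by 0.41 in HR (SE 0.14, 1.33-fold, limma adjusted p = 0.0310) and by 0.42 in LR (SE 0.14, 1.33-fold, limma adjusted p = 0.0289). Both calls were fragile. Without 1 pool, the adjusted p ranged from 0.0199 to 0.110 in HR and from 0.0252 to 0.0850 in LR. Leaving out any HR3 pool (0.0562 without pool 1, 0.0799 without pool 2, 0.0775 without pool 3), HR7 pool 2 (0.106) or HR7 pool 3 (0.110) ended the call in HR. In LR the call ended without LR3 pool 1 (0.0506) or pool 2 (0.0850), and without LR7 pool 2 (0.0564) or pool 3 (0.0841).

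The second CDH1 probe set, Bt.13021.1.S1_at, gave day differences of opposite sign in HR and LR, neither of which passed. HR3 pools gave 7.19, 8.12 and 8.16, and LR3 pools 6.74, 7.13 and 6.73. At day 7 the values were 7.49, 7.14 and 7.20 in HR and 7.67, 7.57 and 6.78 in LR. Every HR3 pool exceeded every LR3 pool, by 0.06 between the nearest pair, while HR7 and LR7 overlapped. At day 3, HR minus LR was 0.96 (SE 0.28, interval 0.34 to 1.57, limma adjusted p = 0.670), which did not pass. The day difference was -0.55 in HR (limma adjusted p = 0.131) and 0.47 in LR (adjusted p = 0.177). The HR difference passed with array weights (-0.77, limma adjusted p = 0.00591) and without HR3 pool 1 (-0.86, limma adjusted p = 0.0266), and the LR difference without LR7 pool 3 (0.75, adjusted p = 0.0423). In the first CDH1 probe set the HR3 pools also all lay above the LR3 pools, but by less (difference 0.16, interval -0.14 to 0.46, limma adjusted p = 0.827), which did not pass either.

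The second CDH1 probe set also varied in part together with a labelling control. The array carries probe sets for the 5′ and 3′ ends of dap, a bacterial transcript used as a control of target preparation, and their log2 difference falls as the 5′ end is covered less. This difference was -2.74, -1.39 and -1.32 in HR3, and -3.13, -2.66 and -2.86 in LR3. At day 7 the dap difference was -2.30, -1.77 and -1.84 among HR pools and -1.50, -1.47 and -1.88 among LR pools. HR3 pools 2 and 3 thus had both the highest CDH1 signals of this probe set and the highest dap differences among the 12 pools, and LR3 pools 1 and 3 had the 2 lowest of each. The HR7 pools broke this order, pool 1 having the highest CDH1 value of its group and the lowest dap difference. The same difference for thr, another such control, was -3.56, -2.56 and -1.97 in HR3 and -3.52, -3.54 and -4.35 in LR3. For day 7 it was -2.86, -3.06 and -2.89 in HR and -2.37, -2.98 and -3.85 in LR. In thr, LR7 pool 1 thus exceeded HR3 pool 2, and LR7 pool 3 lay below LR3 pool 1. The part of target preparation in the CDH1 difference was not tested.

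**Figure D2:**
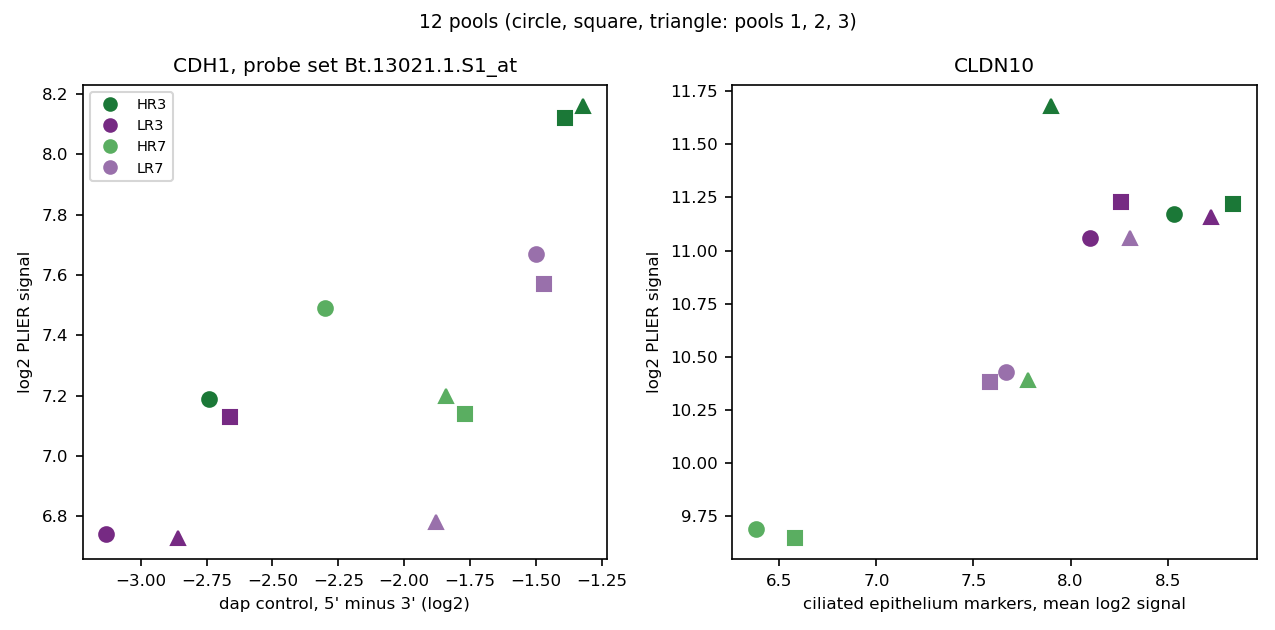
Left, log2 signal of CDH1 probe set Bt.13021.1.S1_at against the log2 difference of the 5′ and 3′ dap probe sets; right, log2 signal of CLDN10 against the mean log2 signal of 4 ciliated cell markers; each point is 1 of 12 pools, coloured by group. HR3 pools 2 and 3 lie at the upper right of the left panel (8.12 and 8.16), and HR7 pools 1 and 2 at the lower left of the right panel (9.69 and 9.65).

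Each connexin had 1 probe set that changed with the day, that of GJA1 lower in both groups and that of GJB2 higher in HR. GJA1 encodes connexin 43, a widespread gap junction protein of stromal, muscle and epithelial cells. Probe set Bt.15972.1.S1_at read 10.72, 10.99 and 11.03 in HR3 and 11.50, 11.23 and 10.09 in LR3. At day 7 it read 7.63, 7.95 and 8.85 in HR and 7.52, 8.33 and 8.15 in LR. The lowest pool of day 3 lay above the highest pool of day 7, and all 12 pools exceeded the array median. GJA1 fell by 2.77 in HR (SE 0.37, 6.82-fold, interval 3.88 to 12.0, limma adjusted p = 0.000326). In LR it fell by 2.94 (SE 0.37, 7.67-fold, interval 4.37 to 13.5, limma adjusted p = 0.000253). In order, the means were 10.94 ± 0.75 in LR3, 10.91 ± 0.17 in HR3, 8.14 ± 0.63 in HR7 and 8.0 ± 0.43 in LR7 (SD, n = 3). The receptivity groups overlapped on both days, with HR minus LR at -0.03 on day 3 (interval -0.84 to 0.79) and 0.14 on day 7 (interval -0.67 to 0.96).

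The stromal means given beside CDH2 were also lower at day 7 for the most part. Within day 7, HR7 pool 3 was highest (8.85 and 8.80) and LR7 pool 1 lowest (7.52 and 7.58) of their groups in both GJA1 and stromal mean. Within day 3, HR3 pool 3 and LR3 pool 1 had the most GJA1 (11.03 and 11.50). Their stromal means (8.88 and 8.0) were the lowest of their groups. The part of stromal cells in the fall of GJA1 was not tested. The other GJA1 probe set, Bt.23750.1.A1_at, ranged only from 4.62 to 5.24 over the 12 arrays, below every array median. Its day difference was -0.05 in HR (interval -0.43 to 0.32) and -0.16 in LR (interval -0.53 to 0.22). The fall of GJA1 therefore rests on 1 of its 2 probe sets.

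GJB2 encodes connexin 26, an epithelial gap junction protein. Its probe set Bt.9760.1.S1_at gave 6.44, 6.68 and 6.48 in HR3 and 6.41, 6.61 and 6.94 in LR3. At day 7 the pools read 7.36, 8.08 and 7.28 in HR and 7.49, 6.91 and 7.09 in LR. All HR7 pools exceeded all HR3 pools, whereas LR7 pool 2 lay just below LR3 pool 3. GJB2 rose by 1.04 in HR (SE 0.23, 2.06-fold, interval 1.46 to 2.90, limma adjusted p = 0.00494). In LR the difference was 0.51 (SE 0.23, interval 0.01 to 1.01, limma adjusted p = 0.0822) and did not pass, although it did without HR7 pool 2 (adjusted p = 0.0455). The difference between these 2 day changes was 0.53 (interval -0.17 to 1.23, limma adjusted p = 1), so they were not shown to differ.

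Markers of basal and squamous epithelium were higher at day 7, as the GJB2 means were, but not in step with GJB2 from pool to pool. HR7 pool 3 had the highest mean of these markers in its group (7.67) but the lowest GJB2 (7.28). LR7 pool 1 was highest of its group in both (6.58 and 7.49). The mean of 8 such genes lay between 5.64 and 6.16 at day 3, between 7.40 and 7.67 in HR7 and between 6.48 and 6.58 in LR7, with 4 of 4 tested genes rising in HR and 2 of 4 in LR, beside 20.7% and 22.7% of all tested probe sets. KRT14, KRT4, COL17A1 and SFN stayed below the array median on all 12 arrays. KRT5 and ITGB4 exceeded it on 7, KRT17 on 8 and KRT15 on 11. In each day 7 pool 4 of the 8 genes exceeded the median, so KRT5, ITGB4 and KRT17 were above it mostly at day 7. The filter thus favoured a rise, and the count of rises was partly set by it. The mean of 6 neutrophil markers was higher at day 7 as well, from 7.09 to 7.45 at day 3 and from 8.45 to 9.48 at day 7. Of these genes, MPO and FCGR3A stayed below the array median on all 12 arrays. Only 3 (S100A8, S100A9 and S100A12) were tested, and all 3 rose in HR and in LR, beside the same 20.7% and 22.7%. The part of either cell type in the GJB2 rise was not tested. The remaining GJB2 probe sets were dim. Bt.29716.1.S1_at ranged from 3.31 to 4.86, with a day difference of 0.19 in HR and 0.13 in LR. Bt.29716.1.A1_at ranged from 3.06 to 4.68, and its day difference was -0.67 in HR and -0.73 in LR, opposite in sign to that of Bt.9760.1.S1_at. The rise of GJB2 therefore rests on 1 of its 3 probe sets. Over all 24016 probe sets, 11.2% passed between days in HR and 11.4% in LR, and none of the 6 untested junction probe sets was among them.

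CLDN10 was the only tight junction gene of the 10 whose transcript passed a test. It encodes a claudin whose variants form paracellular ion pores. Signals of Bt.16487.1.S1_at were 11.17, 11.22 and 11.68 in HR3 and 11.06, 11.23 and 11.16 in LR3. At day 7 they were 9.69, 9.65 and 10.39 in HR and 10.43, 10.38 and 11.06 in LR. HR7 pools 1 and 2 were the lowest of the series, and LR7 pool 3 stayed at the level of day 3. CLDN10 fell by 1.45 in HR (SE 0.24, 2.73-fold, interval 1.91 to 3.89, limma adjusted p = 0.00102). In LR the difference was -0.53 (SE 0.24, interval -1.04 to -0.01, limma adjusted p = 0.0825). That difference passed with the pool number as a block (adjusted p = 0.0294 over all groups, but 0.0618 with the LR pools alone) and without LR7 pool 3 (-0.75, limma adjusted p = 0.0253).

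The means of CLDN10 followed the order HR3 (11.36 ± 0.28), LR3 (11.15 ± 0.09), LR7 (10.62 ± 0.38) and HR7 (9.91 ± 0.42, SD, n = 3). HR3 and LR3 overlapped, as did LR7 and LR3 at 1 pool, and HR7 and LR7 met at pool 3 of HR7 (10.39) and pool 2 of LR7 (10.38). HR minus LR was -0.71 at day 7 (SE 0.24, interval -1.23 to -0.20, limma adjusted p = 0.685). The change over days differed between HR and LR by -0.92 (SE 0.33, interval -1.64 to -0.20, limma adjusted p = 1), which did not pass either.

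Markers of ciliated epithelium moved with CLDN10 among the day 7 pools for the most part, but not among those of day 3. The mean of 4 genes (TEKT1, CCDC39, TPPP3 and SPAG6) was 8.53, 8.84 and 7.90 in HR3, and 8.10, 8.26 and 8.72 in LR3. At day 7 the ciliated mean was 6.38, 6.58 and 7.78 among HR pools and 7.67, 7.59 and 8.31 among LR pools. HR7 pools 1 and 2 were lowest in both measures, and pool 3 was highest within HR7 and within LR7 in both. HR3 pool 3 went the other way, having the highest CLDN10 signal of the series and the lowest ciliated mean of its group. Within LR3, CLDN10 was highest in pool 2 (11.23) and the ciliated mean in pool 3 (8.72). All 4 markers fell in HR, beside 20.8% of all tested probe sets. In LR all 4 were lower too (median difference -0.48), but none passed, beside 22.0%. The difference of their day changes between HR and LR passed in 0 of 4, against 0% of all tested. The part of ciliated cells in the CLDN10 difference was not tested.

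None of the remaining claudins passed in any comparison. That does not show an unchanged signal, since some intervals were wide (for the day difference of CLDN4 in HR, -1.01 to 0.50). CLDN1, a sealing claudin, has 2 probe sets, with signals from 10.48 to 11.47 (Bt.24343.1.A1_at) and from 9.29 to 10.64 (Bt.24343.2.S1_at). Their day differences were 0.33 and 0.23 in HR and 0.17 and 0.27 in LR. In both probe sets the lowest pools were LR3 pool 3 (10.48 and 9.29) and LR7 pool 2 (10.60 and 9.52), so the paired probe sets traced the same pools. At day 3, HR minus LR was -0.18 (interval -0.73 to 0.37) and -0.01 (interval -0.73 to 0.72).

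CLDN4, an epithelial claudin of the barrier, ranged from 9.5 to 11. Both extremes were LR3 pools, pool 3 and pool 1, and the 4 groups overlapped. The day difference of CLDN4 was -0.26 in HR (interval -1.01 to 0.50) and -0.24 in LR (interval -0.998 to 0.512). CLDN7, which occurs along the lateral membrane of epithelia, ranged from 11.45 to 12.24, and LR7 held both extremes. Its day difference was -0.04 in HR (interval -0.47 to 0.39) and 0.16 in LR (interval -0.27 to 0.59). The signal of CLDN3, another barrier claudin, was the steadiest of the well-detected members, from 10.60 to 11.20. Its day difference was -0.14 in HR (interval -0.48 to 0.19) and -0.10 in LR (interval -0.44 to 0.24).

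TJP1 could not be followed. Bt.29712.1.S1_at read between 3.39 and 5.01 and Bt.29712.1.A1_at between 0 and 4.05, the latter with LR3 pool 1 listed at 0. Both stayed below the array median on all 12 arrays, and the largest difference of the second, 0.87 for HR3 minus LR3, had an interval from -1.16 to 2.90. A change of TJP1 was not detectable at these signals.

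**Figure D3:**
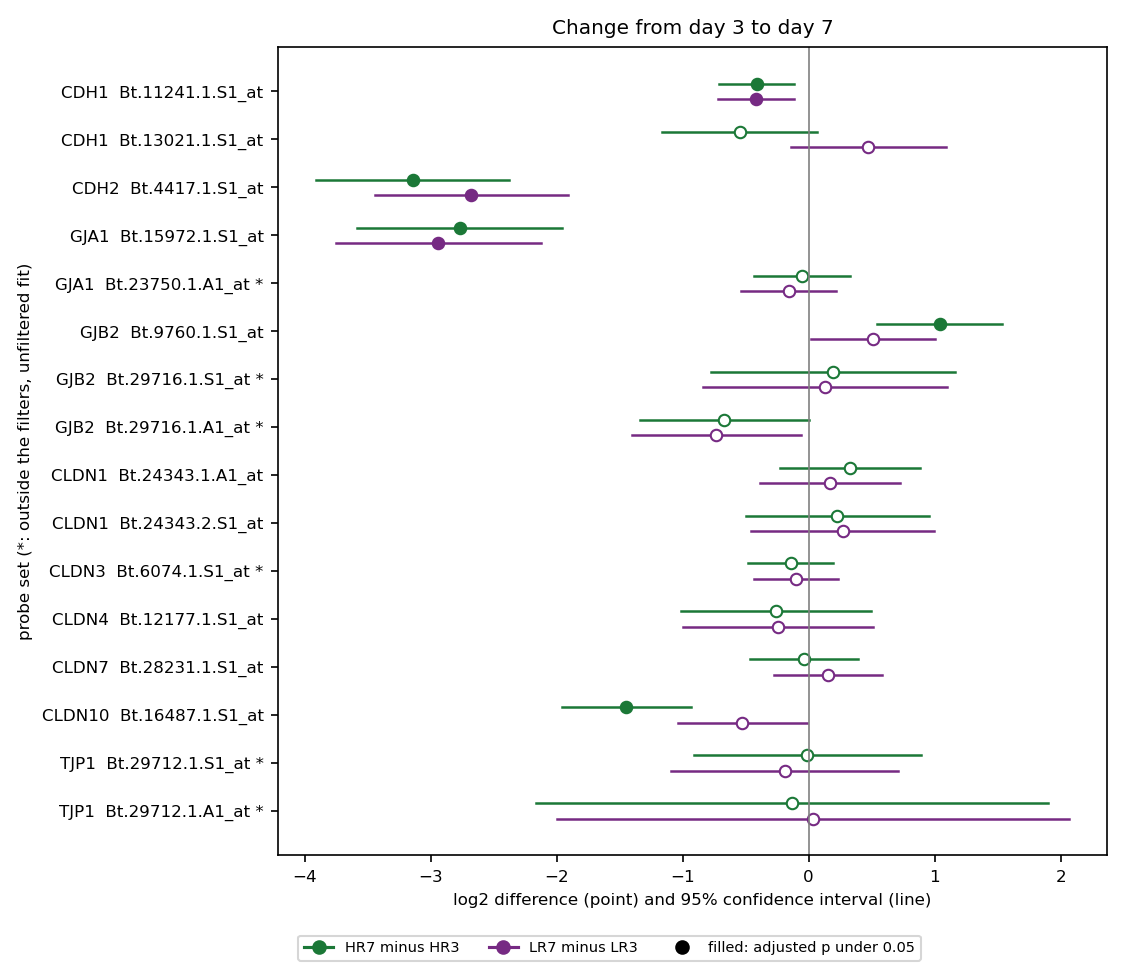
Log2 difference between day 7 and day 3 (horizontal axis) for each junction probe set (vertical axis) in HR (green) and LR (purple); points are differences of the means of 3 pools, lines are 95% confidence intervals, filled points passed an adjusted p under 0.05, and asterisks mark probe sets outside the filters. CDH2 (-3.14 and -2.68) and GJA1 (-2.77 and -2.94) lie far from 0 in both groups, and CLDN10 is filled in HR alone, although its difference between HR and LR did not pass.

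The question of the study was whether endometria that later carried a pregnancy differed beforehand. For the junction genes, 0 of 10 tested probe sets passed in HR3 against LR3, where 0% of all 7336 probe sets passed, and 0 of 10 in HR7 against LR7, where 0.0682% passed. The difference of the day changes between HR and LR likewise passed in 0 of 10, against 0% of all tested. At an unadjusted p under 0.05, limma gave 1 of 10 at day 3 (the second CDH1 probe set, against 7.03% of all tested), 2 of 10 at day 7 (CDH2 and CLDN10, against 4.51%) and 2 of 10 for the difference of the day changes (CLDN10 and the second CDH1 probe set, against 3.90%). These counts are small. Adjusted over the 5 comparisons together, the second CDH1 probe set passed at day 3 (limma adjusted p = 0.0459), as did 0.763% of all tested probe sets. That adjustment ranks it together with the day comparisons, whose many small p-values loosen the cut-off. The median difference over the 16 probe sets was 0.09 at day 3 and 0.03 at day 7, beside 0.02 and 0.01 over all 24016. The day comparisons share their samples with the receptivity comparisons, so the results for a gene are not independent of each other.

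**Figure D4:**
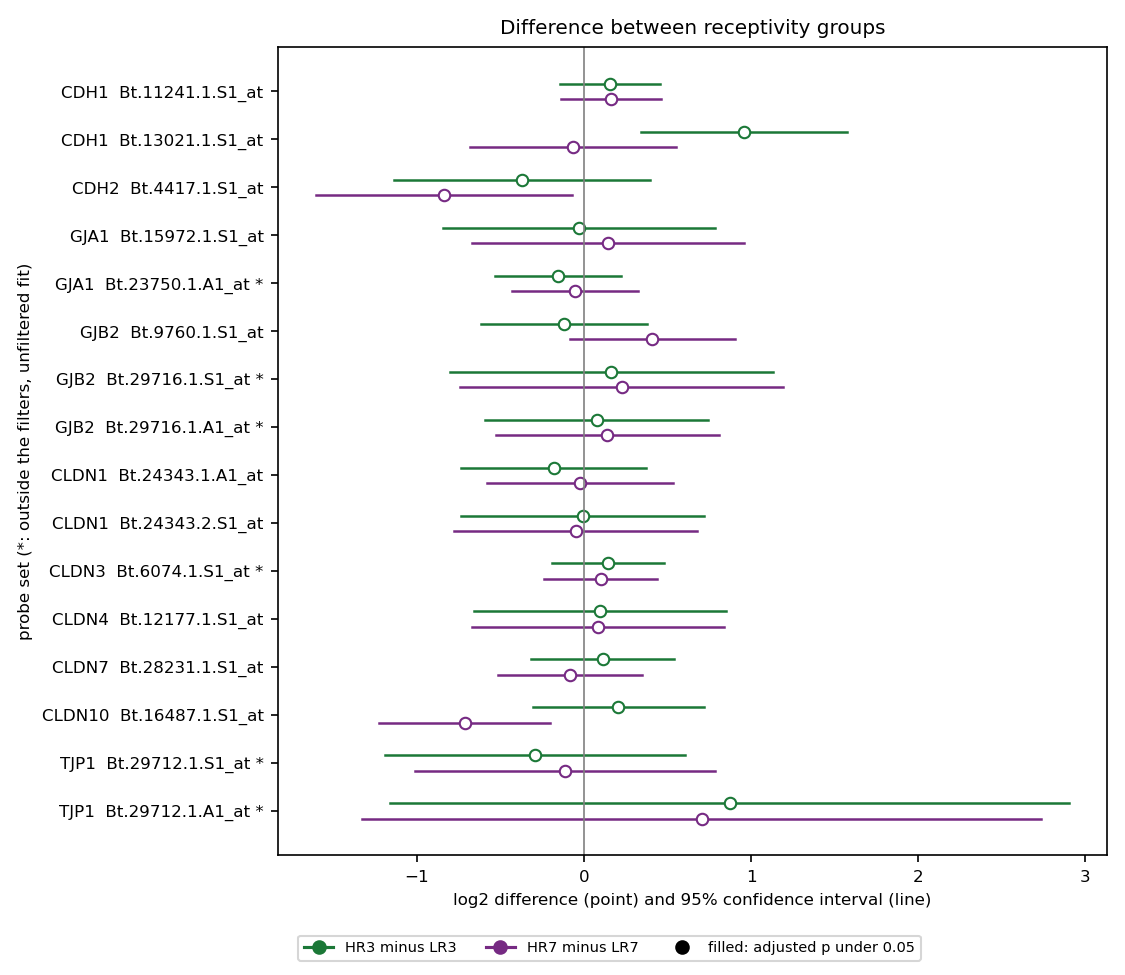
Log2 difference between HR and LR (horizontal axis) for each junction probe set (vertical axis) at day 3 (green) and day 7 (purple); points are differences of the means of 3 pools and lines are 95% confidence intervals. No point is filled, since none passed an adjusted p under 0.05; the intervals for the second CDH1 probe set at day 3 and for CDH2 and CLDN10 at day 7 do not reach 0.

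A single pool accounted for much of the spread in LR3. LR3 pool 3 lay below its group mean by 0.85 in GJA1, 0.79 in CDH2, 0.79 in CLDN4, and 0.49 and 0.71 in the CLDN1 probe sets. In CDH1, CLDN3 and CLDN10 it stayed near the mean. Without this pool, GJA1 and CDH2 still fell in LR.

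Beyond the 10 genes, 111 genes of adherens junctions, desmosomes, gap junctions and tight junctions were listed, of which 53 were named on the array and 23 were tested, each by its probe set of highest mean signal. In HR, 4 of the 23 rose and 6 fell from day 3 to day 7, where 20.7% of all tested probe sets rose and 20.8% fell. In LR 3 rose and 7 fell, where 22.7% rose and 22.0% fell. The median difference of the 23 was -0.32 in HR and -0.30 in LR, beside -0.06 and -0.10 over all 7336 tested. None passed between HR and LR on either day or in the difference of day changes. Of the 23, 6 passed the signal filter only through day 3 groups and 2 only through day 7 groups, which forced part of this picture.

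Among adherens junction genes, 6 were tested. CDH11 (cadherin 11, a mesenchymal cadherin) fell by 2.12 in HR (limma adjusted p = 0.0143) and by 1.76 in LR (adjusted p = 0.0296). Its HR7 pools gave 5.13, 5.21 and 7.84, the last close to the HR3 pools at 8.33, 8.29 and 7.91. The HR call ended without HR7 pool 1 or 2 (limma adjusted p from 0.0579 to 0.0621) and the LR call without LR3 pool 2 or 3 or LR7 pool 1 or 2 (0.0629 to 0.0963). CDH3 (P-cadherin) fell by 0.65 in HR (limma adjusted p = 0.00535) and by 0.63 in LR (adjusted p = 0.00608). CDH16 (a cadherin known from kidney epithelium) fell by 0.68 in LR (limma adjusted p = 0.0461), a call lost in 17 of 24 alternatives, among them leaving out any HR3 or LR7 pool, LR3 pool 1 or 2, or HR7 pool 1 (0.0546 to 0.150). These 3 cadherins passed the signal filter only through day 3 groups, as CDH2 did. In all, 2 of 6 fell in HR and 3 of 6 in LR, and none rose.

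Of 5 desmosomal genes, 1 rose and 1 fell in each group. PKP1 (plakophilin 1, a plaque protein prominent in stratified epithelium) rose by 1.2 in HR (limma adjusted p = 0.0155) and by 0.90 in LR (adjusted p = 0.0467), the LR pools overlapping. Its HR call ended without HR3 pool 1 or HR7 pool 2 (limma adjusted p from 0.0508 to 0.0581), and its LR call in 17 of 24 alternatives, among them leaving out any HR3 or HR7 pool, LR3 pool 2 or 3, or LR7 pool 1 or 2 (0.0510 to 0.166). JUP (plakoglobin, shared by desmosomes and adherens junctions) fell by 0.50 in HR (limma adjusted p = 0.0138), but not without HR3 pool 2 or HR7 pool 2 or 3 (0.0505 to 0.0545). The other tested connexin, GJB5 (a connexin known from epidermis and from trophoblast in mouse), rose by 1.96 in HR (limma adjusted p = 0.000380) and by 1.96 in LR (adjusted p = 0.000456). GJB5 gave 5.18, 5.42 and 5.96 in HR3 and 5.49, 6.04 and 5.86 in LR3. It gave 7.73, 7.5 and 7.22 in HR7 and 7.56, 8.35 and 7.37 in LR7, with no overlap between days. GJB5 and PKP1 passed the filter only through day 7 groups, and the basal and squamous markers described beside GJB2 moved in their direction.

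Of 11 tight junction genes, 2 rose and 3 fell in HR, and 1 rose and 3 fell in LR. JAM3 (a junctional adhesion molecule also found on endothelium) fell by 1.32 in HR (limma adjusted p = 0.00157) and by 0.67 in LR (adjusted p = 0.0355), the latter not without LR3 pool 3 or LR7 pool 1 or 2 (0.0914 to 0.118). LSR (angulin 1, a protein of contacts between 3 cells) fell by 0.48 in HR (limma adjusted p = 0.0225) and by 0.56 in LR (adjusted p = 0.0113), the former not without HR3 pool 2 or 3 or HR7 pool 2 or 3 (0.0547 to 0.0694). PRKCI (an atypical protein kinase C of cell polarity) rose by 0.50 in HR (limma adjusted p = 0.0256) and by 0.73 in LR (adjusted p = 0.00461), the former not without HR3 pool 1 or 2 or HR7 pool 1 or 2 (0.0589 to 0.0950). TJP3 (the scaffold ZO-3) rose by 0.36 in HR (limma adjusted p = 0.0345), but not without HR3 pool 1 or 2 or any HR7 pool (0.0571 to 0.0997). JAM3 passed the signal filter through HR3 alone.

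**Figure D5:**
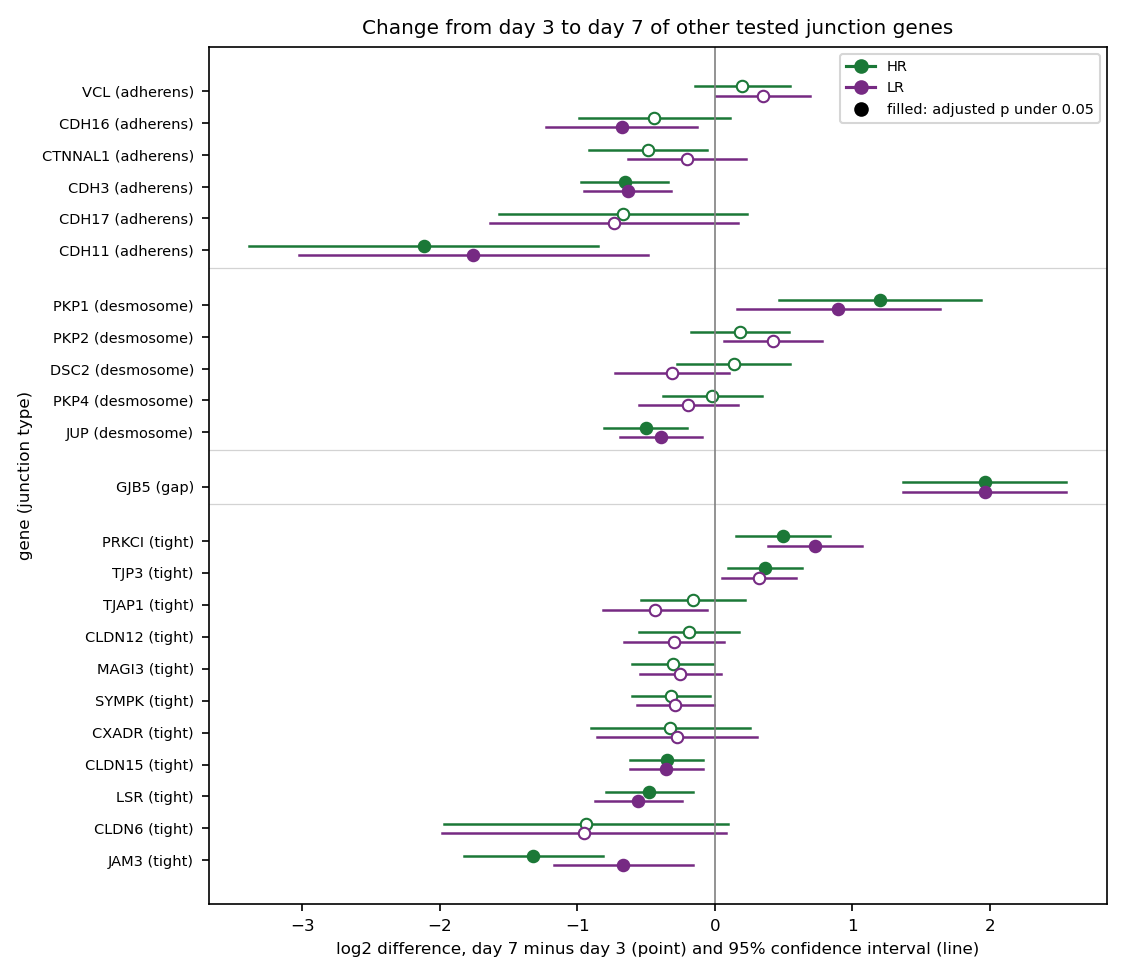
Log2 difference between day 7 and day 3 (horizontal axis) of the 23 other tested junction genes (vertical axis, grouped by junction type) in HR (green) and LR (purple); points are differences of the means of 3 pools, lines are 95% confidence intervals, and filled points passed an adjusted p under 0.05. CDH11 (-2.12 and -1.76) and GJB5 (1.96 and 1.96) mark the 2 ends of the range.

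For the 4 member genes whose probe set of highest mean signal had a standard deviation of at least 0.5 over the 12 arrays, the nearest profiles were sought among 4364 other genes, as the smallest root mean square difference of centred log2 values. Nearest to CDH2 were KLK10 (a secreted kallikrein-related peptidase, 0.40) and TSPAN2 (a tetraspanin, 0.45). KLK10 averaged 8.58 in HR3, 8.65 in LR3, 5.81 in HR7 and 6.30 in LR7. Nearest to GJA1 were JAG1 (a Notch ligand, 0.49) and KLF11 (a zinc finger transcription factor, 0.51), and JAG1 averaged 9.70, 9.60, 7.70 and 7.53 in the same order. GJB2 was most like SAR1A (a small GTPase of vesicle budding, 0.21) and ELL2 (a transcription elongation factor, 0.21). CLDN10 was most like AXIN2 (a scaffold of the Wnt pathway, 0.26) and FAM166B (0.26). AXIN2 averaged 7.69 in HR3, 7.49 in LR3, 6.46 in HR7 and 6.85 in LR7, so that it too was lowest in HR7. These likenesses describe 12 pools of 4 groups and carry no test.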

How the data were processed

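The authors hybridised 12 pools of endometrial RNA to Affymetrix Bovine Genome Arrays and, per the labels, summarised probe signals with PLIER in Affymetrix Expression Console, scaling by GCOS 1.1.1. The deposited values are log2 signals with 2 decimals, from 0 to 14.07, and no intensities of single probes were used here. Precision is limited by 3 pools per group. No detection calls were used. Pools may share heifers between days, and p-values measure only the spread between pools.

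Of 24128 entries, 112 were controls. Symbols came from the platform annotation (13292 probe sets with 1 symbol, 86 with several, 10638 with none), and those of all 16 junction probe sets match the RefSeq gene table by gene identifier. Probe sets were tested if their standard deviation was at least 0.2 and their signal exceeded the array median in every pool of 1 or more groups, the latter in place of present calls. A linear model that gives each group its own mean was fitted over the 12 arrays with limma 3.58.1 (R 4.3.3), with empirical Bayes moderation and Benjamini-Hochberg adjustment within each of 5 comparisons. The script was tested on simulated data.

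The junction genes and all gene lists were chosen with earlier results of these data known. Named are all junction probe sets, up to 5 of the other junction genes with the largest rise and 5 with the largest fall among those that passed in each day comparison, and the 2 nearest profiles of each member gene whose probe set of highest mean signal had a standard deviation of at least 0.5. Lists of markers for 11 cell types were described by their means. Alternatives covered filters, normalization, an added offset of 16, variance models, adjustment, the pool number as a block, and leaving out each pool.

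Pool numbers come from the labels, which do not say what a number shares. Deviations from group means of same-numbered pools correlated at 0.20, 0.21 and 0.46 between LR3 and LR7, and at 0.14, 0.15 and 0.44 between HR7 and LR7. Between HR3 and HR7 they correlated at 0.12, 0.00 and -0.06, and between HR3 and LR3 at -0.08, -0.03 and -0.47. The values were -0.20, -0.10 and -0.28 between HR3 and LR7, and -0.12, 0.01 and 0.19 between LR3 and HR7. Pools of different numbers reached similar sizes, such as 0.38 (LR3 pool 1 and HR7 pool 2) and -0.45 (HR7 pool 3 and LR7 pool 1). These correlations therefore do not settle what a number shares.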

Additional observations from a re-analysis of the deposited data

How the results depend on the processing

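The day differences of GJA1 in both groups and of CLDN10 in HR passed under all 26 settings, and those of CDH2 and of GJB2 in HR wherever they were tested. The call of CDH1 (Bt.11241.1.S1_at) also ended with no filter on low signal (limma adjusted p = 0.0864 in HR, 0.0812 in LR) and with adjustment over the 5 comparisons together (0.0724 and 0.0703), and in LR with only the compared groups (0.0834, leaving 2 calls in place of 3). The latter adjustment gave 1 call in HR3 against LR3 in place of 0, that of the second CDH1 probe set. With the stricter filter (above the 60th percentile), 3 junction probe sets were called in HR7 against HR3 in place of 5, because fewer were tested. With array weights 6 were called, the second CDH1 probe set being added.

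With the replicate block over all groups, 5 junction probe sets were called in HR7 against HR3 and 4 in LR7 against LR3, the added one being CLDN10. With the block and only the compared groups, 4 and 2 were called, CDH1 being lost. The block changed no other call of a junction probe set. Leaving out 1 pool gave 4 to 5 calls in HR and 2 to 4 in LR.

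Of the other junction genes, 10 were called in each day comparison. In HR this became 4 without the low-signal filter, 5 with the stricter one and 6 with the joint adjustment, and 4 to 10 without 1 pool (4 without HR7 pool 2, 5 without HR3 pool 2, 6 without HR3 pool 1 or HR7 pool 3). In LR it became 6, 6 and 4, then 5 with only the compared groups, and 5 to 9 without 1 pool (5 without LR7 pool 2). Over all probe sets, LR7 against LR3 gave 3280 calls, 1960 with only the compared groups and 2138 without LR7 pool 1, and HR7 against HR3 gave 3045 and 1889 without HR7 pool 2. The joint adjustment gave 56 calls in HR3 against LR3, 73 in HR7 against LR7 and 29 for the difference of day changes, in place of 0, 5 and 0. Leaving out 1 pool gave up to 11, 2 to 9 and up to 2. The joint adjustment ranks the p-values of the 5 comparisons together. The many small ones of the day comparisons thereby loosen the cut-off for the other comparisons. The cause of the other shifts was not tested.

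Some differences near 0 changed sign. With array weights the values were -0.032 for the difference of day changes of CDH1 (Bt.11241.1.S1_at), and for HR3 minus LR3 0.028 for CLDN1 (Bt.24343.2.S1_at) and 0.015 for GJB2 (Bt.9760.1.S1_at). The difference of day changes of CLDN4 was 0.005 with median centring and 0.012 with quantile normalization, and CLDN7 in HR7 against HR3 was 0.0033 with median centring. Without 1 pool, HR3 minus LR3 ranged from -0.45 to 0.25 for GJA1 (Bt.15972.1.S1_at), from -0.24 to 0.023 for GJB2, from -0.36 to 0.18 for CLDN1 (Bt.24343.2.S1_at) and from -0.30 to 0.45 for CLDN4. HR7 minus LR7 ranged from -0.34 to 0.10 for CDH1 (Bt.13021.1.S1_at), from -0.21 to 0.40 for GJA1, from -0.29 to 0.14 and from -0.42 to 0.14 for CLDN1, and from -0.15 to 0.25 for CLDN4. Day differences ranged from -0.15 to 0.032 for CLDN7 in HR, and in LR from -0.075 to 0.44 and from -0.083 to 0.64 for CLDN1 and from -0.64 to 0.11 for CLDN4. The difference of day changes ranged from -0.11 to 0.072 for CDH1 (Bt.11241.1.S1_at), from -0.18 to 0.595 for GJA1, from -0.11 to 0.40 and from -0.42 to 0.31 for CLDN1, and from -0.37 to 0.38 for CLDN4. None of these passed the test.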
